A study of Mus musculus with 8 samples.

Results

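Clu, Mcpt8, Thy1, Rnase4, Itgbl1 and Cited2, 6 of the 24411 genes counted, were chosen by the difference between their log2 responses to the drug largazole in A223 cells with a PRDX6 knockdown (KD) and in parental A223 cells. A223 is a line from a squamous cell carcinoma of the mouse. All 6 had enough counts to be tested. PolyA-selected RNA was sequenced in 8 libraries, 2 replicates for each of 4 groups: PRDX6 KD with 100 nM largazole for 18 h, PRDX6 KD with DMSO at 0 h, parental with 100 nM largazole for 18 h, and parental with DMSO at 0 h. Largazole inhibits class I histone deacetylases, and PRDX6 is a peroxiredoxin that reduces peroxides. Because the DMSO libraries date from 0 h, effects of the drug and of 18 h in culture cannot be told apart. The knockdown was compared with parental cells only, so effects of carrying a construct cannot be told apart from those of losing PRDX6. The labels do not say whether replicates are separate cultures, and the p-values cover the spread between libraries, which may be technical.

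The choice was limited to secreted or surface genes plus Cited2, so what their proteins share is no result of these data. Apart from Cited2, these genes encode proteins that leave the cell, are stored in granules or sit on its surface. Clusterin, the product of Clu, is a secreted chaperone that holds unfolded proteins outside the cell and is known as a stress-induced gene of epithelia and tumours. Mcpt8 encodes a granule serine protease best known from mouse basophils, Thy1 a small surface glycoprotein held by a lipid (GPI) anchor and found on T cells, neurons and fibroblasts, Rnase4 a secreted ribonuclease of the RNase A family, and Itgbl1 a secreted protein with repeats like those of integrin beta chains. Cited2 encodes a nuclear protein that binds the acetyltransferases CBP and p300 and so competes with hypoxia-inducible factors (HIF) for them.

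Total estimated counts were 13020492 to 15613216 per library. Prdx6 itself stood at 81.1 and 64.9 CPM (counts scaled to a common library size) in KD largazole, 86.6 and 79.2 in KD DMSO, 257 and 233 in parental largazole and 297 and 283 in parental DMSO, so all KD libraries lay below all parental ones. The log2 knockdown effect on Prdx6, averaged over both conditions, was -1.78 ± 0.08 (SE; adjusted p = 5.76e-07 by edgeR quasi-likelihood), lower in 4 of 4 KD libraries. Of 15 squamous epithelial markers, 8 averaged at most 1 CPM, with Krt5, Trp63 and Cdh1 among them. The summed level of the 15 was 1770 to 1973 CPM in KD largazole, 2659 to 2735 in KD DMSO, 1625 to 1709 in parental largazole and 2486 to 2627 in parental DMSO, mostly from Krt8. Of the 10 tested, Krt8 and Itga6 fell and 7 rose with largazole averaged over the genotypes, but 5 of these 7 (Krt14, Trp63, Epcam, Perp and Dsp) were near 0 in DMSO and were tested only because of their largazole counts. Rn45s, the ribosomal RNA precursor, stood at 23915 and 742 CPM in the replicates of KD largazole and 9963 and 2549 in KD DMSO. It stood at 7739 and 950 in parental largazole and 1353 and 1212 in parental DMSO. A fit without Rn45s kept all 6 genes past the threshold for the difference described next. That difference chose the genes, so this is no separate support for them. Of 12517 tested genes, 48.2% passed for largazole in KD cells (25% higher, 23.2% lower) and 49.6% for largazole in parental cells (26.9% higher, 22.7% lower). For the knockdown, 18.3% passed under largazole (8.51% higher, 9.81% lower) and 11% in DMSO (7.01% higher, 4.02% lower).

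Each of the 6 genes had a largazole response of the same sign in both genotypes, and on the log2 scale each response was smaller in size in KD than in parental cells. Clu, Mcpt8, Thy1, Rnase4 and Cited2 were higher with largazole, and Itgbl1 was lower. Without the drug, KD cells held more Clu, Mcpt8, Thy1 and Rnase4 than parental cells did, by 2.77 to 10.2 times. The difference between the log2 responses is what chose the genes, so it is described here without a test: 26 of 12517 genes, 0.208%, were past the threshold for that difference (edgeR quasi-likelihood, Benjamini-Hochberg adjusted p under 0.05), 4 higher (0.032%) and 22 lower (0.176%), and all 6 genes were among them. Their ranks by p ran from 5 for Mcpt8 to 22 for Itgbl1, and the gene ranked 27, just outside the threshold, was Eno2 with a difference of 0.86. Of the 26 genes, 10 had the smaller log2 response in KD cells, these 6 among them. The comparisons that can be tested are the responses averaged over both genotypes and the knockdown effects averaged over both conditions. They combine the same libraries in other ways than that difference, but share each gene's estimate of spread with it. The choice may have favoured genes of small spread, so these tests are not fully independent of the choice. All 6 passed for the averaged largazole response, 5 higher and 1 lower, where 62.3% of all tested genes passed, 32.5% higher and 29.8% lower. For the averaged knockdown effect 4 of 6 passed, all higher, where 27% of all tested genes passed and 13.5% were higher.

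**Figure D1:**
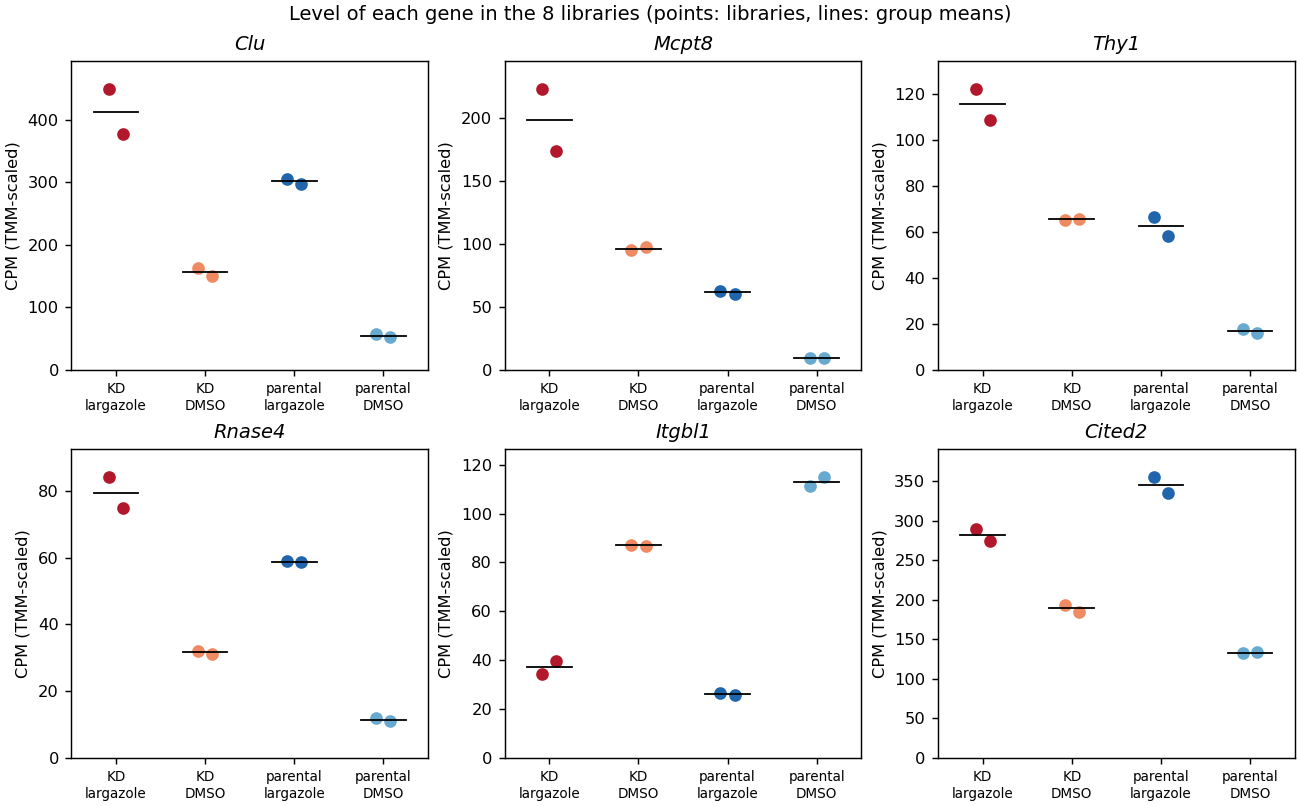
Level of each gene in CPM, scaled to library size, in each of the 8 libraries; points are libraries and horizontal lines are group means (n = 2). Clu, Mcpt8, Thy1 and Rnase4 are highest in KD largazole and lowest in parental DMSO, Itgbl1 is highest in parental DMSO, and Cited2 is highest in parental largazole.

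Clu (chromosome 14, 65968483 to 65981547, plus strand, GRCm38, protein-coding) was measured at 449 and 377 CPM in KD largazole, 163 and 151 in KD DMSO, 305 and 298 in parental largazole, and 56.7 and 51.7 in parental DMSO. No pair of groups overlapped, and the order was the same in both replicates, with KD largazole on top and parental DMSO at the bottom. The largazole mean was 2.63 times the DMSO mean in KD cells and 5.55 times it in parental cells. On the log2 scale of the fit these responses were 1.40 ± 0.10 and 2.47 ± 0.10 (SE), a difference of -1.08 ± 0.14. KD cells held 1.37 times the parental Clu level under largazole and 2.89 times in DMSO. In bulk RNA a change in the share of cells of 1 kind and a change per cell cannot be told apart. Averaged over the genotypes Clu rose with largazole by 1.93 ± 0.07 (adjusted p = 2.06e-08), and averaged over the conditions it rose with the knockdown by 0.99 ± 0.07 (adjusted p = 9.03e-06 by edgeR quasi-likelihood).

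Rnase4 (chromosome 14, 51091077 to 51106151, plus strand) had the same order of groups as Clu, at lower counts. It stood at 84.1 and 74.8 CPM in KD largazole, 32.1 and 31.2 in KD DMSO, 59.0 and 58.6 in parental largazole, and 11.8 and 11.0 in parental DMSO, again with no overlap between groups. The largazole mean was 2.51 times the DMSO mean in KD cells and 5.15 times it in parental cells, log2 responses of 1.33 ± 0.10 and 2.36 ± 0.11 and a difference of -1.04 ± 0.15. The averaged rise with largazole was 1.85 ± 0.07 (adjusted p = 3.27e-08) and with the knockdown 0.95 ± 0.07 (adjusted p = 1.58e-05 by edgeR quasi-likelihood). The ratio of Clu to Rnase4 counts was 5.34 and 5.04 in KD largazole, 5.09 and 4.82 in KD DMSO, 5.17 and 5.08 in parental largazole, and 4.79 and 4.71 in parental DMSO. Over the 8 libraries the SD of the log2 ratio was 0.0615, while the Clu level itself spanned 51.7 to 449 CPM. The ratio was lowest in both parental DMSO libraries, where its counting error on the log2 scale was also largest (0.125 and 0.124). Of the 10165 tested genes averaging 5 CPM or more, Rnase4 was the one whose log2 CPM was most like that of Clu (Pearson r = 0.9997 over 8 libraries), and Clu the one most like Rnase4. All genes are measured in the same 8 libraries and 4 groups, and 267 of them had r above 0.95 with Clu. The next nearest to Clu were Ecscr (r = 0.997), Nmnat2 (0.996), Acad11 (0.995) and Srgn (0.995), and Nmnat2 (0.997) was the second nearest to Rnase4.

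Clu and Rnase4 lie 14.9 Mb apart on chromosome 14. Rnase4 shares its first promoter window and 219 exon bases with Ang, the gene of angiogenin, another RNase A family ribonuclease, and RefSeq gives both genes the same window. It is printed because the same start region precedes both genes. The sequence is from RefSeq (GRCm38.p6, chr14:51090827-51091076, plus strand), 5′ to 3′ up to the first annotated exon, with matches to the heat shock motif GAANNTTC in capitals.
Rnase4 and Ang: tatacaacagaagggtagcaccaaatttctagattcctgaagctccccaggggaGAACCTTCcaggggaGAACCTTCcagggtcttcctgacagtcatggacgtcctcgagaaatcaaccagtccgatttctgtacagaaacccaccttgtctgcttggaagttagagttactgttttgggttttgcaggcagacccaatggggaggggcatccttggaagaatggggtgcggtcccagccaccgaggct
The motif occurs 2 times in it, inside a repeated stretch, and 7.86% of 32817 RefSeq promoter windows of 300 bases hold at least 1 match on either strand. Ang was far lower than Rnase4, at 5.92 and 3.44 CPM in KD largazole, 2.50 and 1.62 in KD DMSO, 2.45 and 1.65 in parental largazole and 1.70 and 0.675 in parental DMSO. KD largazole was the highest group, and the other groups overlapped. Ang rose by 0.98 ± 0.32 with largazole averaged over the genotypes (adjusted p = 0.0231) and by 1.00 ± 0.32 with the knockdown averaged over conditions (adjusted p = 0.0438), and the difference between its responses was 0.34 ± 0.67 (adjusted p = 0.962 by edgeR quasi-likelihood). Ang held 10 to 76 counts per library, and reads in the shared exons may have been divided between the genes by the authors' counting.

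**Figure D2:**
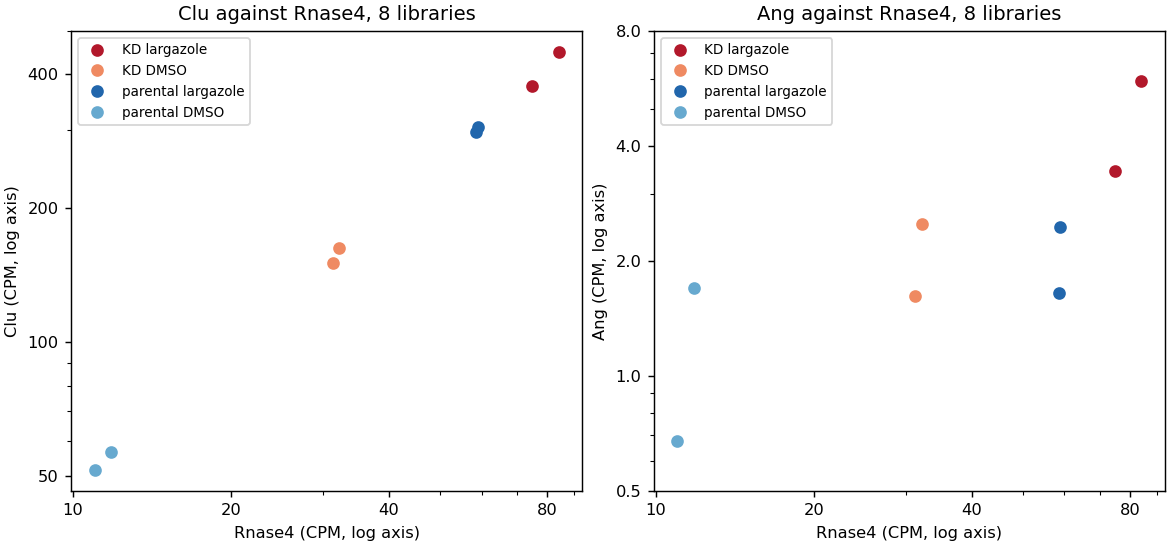
CPM of Clu (left) and Ang (right) against CPM of Rnase4 in each of the 8 libraries, all axes logarithmic; colours mark the 4 groups. The ratio of Clu to Rnase4 stays between 4.71 and 5.34 in all libraries, while Ang, at 0.675 to 5.92 CPM, lies below Rnase4 in all of them.

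In the RNase A family 20 genes including the inhibitor were listed, and only Ang and Rnh1 besides Rnase4 had enough counts to be tested. Rnh1, the cytosolic inhibitor that binds these ribonucleases, averaged 343 CPM in KD largazole, 332 in KD DMSO, 371 in parental largazole and 390.5 in parental DMSO, with an averaged largazole response of -0.01 ± 0.08 (adjusted p = 0.882). Clusterin is taken up through receptors of the low-density lipoprotein receptor family and was described as a ligand of Plxna4. Of 7 listed receptor genes 5 were tested, and all 5 fell with largazole averaged over the genotypes (median log2 -1.09, against 0.02 over all tested genes, of which 29.8% fell). With the knockdown 2 rose and 2 fell, where 13.5% of all tested genes rose and 13.5% fell. Lrp8 fell by 1.66 ± 0.07 on the log2 scale with largazole (adjusted p = 4.86e-08) and fell by 0.70 ± 0.07 with the knockdown (adjusted p = 7.93e-05), and Vldlr fell by 0.55 ± 0.12 with largazole (adjusted p = 0.00304) but rose with the knockdown by 0.62 ± 0.12 (adjusted p = 0.00454). None of the 5 passed for the difference between responses, where 0.208% of all tested genes did. Of 8 other secreted chaperones only Apoe was tested, at 1.44 CPM in KD largazole, 1.58 in KD DMSO, 1.65 in parental largazole and 1.88 in parental DMSO, and it passed no comparison.

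Mcpt8 (chromosome 14, 56082166 to 56085273, minus strand) had the largest knockdown effect of the 6 genes. Its level was 223.4 and 174 CPM in KD largazole, 95.3 and 97.3 in KD DMSO, 62.7 and 60.5 in parental largazole, and 9.32 and 9.58 in parental DMSO. The groups did not overlap, and KD cells without the drug lay above parental cells with it. The largazole mean was 2.06 times the DMSO mean in KD cells and 6.52 times it in parental cells, log2 responses of 1.04 ± 0.11 and 2.70 ± 0.13 that differed by -1.66 ± 0.17. KD cells held 3.23 times the parental level under largazole and 10.2 times in DMSO. The averaged rises were 1.87 ± 0.09 with largazole (adjusted p = 8.04e-08) and 2.52 ± 0.09 with the knockdown (adjusted p = 1.97e-07), which ranked 3 of 12517 genes by p for the knockdown. Its promoter is printed as the one without a CpG dinucleotide among the 4 found. In the 300-base RefSeq window (GRCm38.p6) none of 7 motifs searched on both strands was found: ACGTG for HIF, GGGCGG (GC box), TGANTCA for AP-1, TGACGT (from the cAMP response element), TATAAA, GAANNTTC and TGACNNNGC (antioxidant response element). The bases before the first annotated exon are chr14:56085274-56085447, minus strand, 5′ to 3′, with no capitals because nothing matched.
Mcpt8: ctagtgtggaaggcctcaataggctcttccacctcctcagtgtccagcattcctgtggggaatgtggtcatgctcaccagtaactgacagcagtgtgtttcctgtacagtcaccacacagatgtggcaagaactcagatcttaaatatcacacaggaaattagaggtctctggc

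Mcpt8 lies in a cluster of mast cell protease and granzyme genes. Of 14 other genes of the cluster, only Gzme, Mcpt1 and Cma2 were tested, and Mcpt1 and Cma2 reached the minimum count only through KD largazole, where they were highest, so no count of rises over the cluster is given. Gzme, 32.4 kb away, had 63 and 58 counts in KD largazole, 26 and 24 in KD DMSO, 44 and 25 in parental largazole and 6 and 4 in parental DMSO. Its averaged rises were 2.01 ± 0.30 with largazole (adjusted p = 0.000226) and 1.60 ± 0.31 with the knockdown (adjusted p = 0.00397), and the difference between its responses was -1.35 ± 0.65 (adjusted p = 0.611). Mcpt1 had 28 and 18 counts in KD largazole, 0 in both KD DMSO libraries, 4 and 5 in parental largazole and 0 in both parental DMSO libraries. Cma2 had 27 and 19 counts in KD largazole, 10 and 4 in KD DMSO, 8 and 1 in parental largazole and 0 in both parental DMSO libraries. Counts this low allow no statement on whether their responses differ between genotypes. Markers of mast cells and basophils were close to absent: 11 of 13 averaged at most 1 CPM, 6 were at 0 in all libraries, with Kit, Fcer1a, Cpa3, Tpsab1, Tpsb2 and Prss34 being these, and the summed level of 25.3 to 33.4 CPM in KD largazole, 22.2 to 29.2 in KD DMSO, 23.1 to 26.7 in parental largazole and 18.7 to 23.4 in parental DMSO came mostly from Il3ra and Gata2.

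Thy1 (chromosome 9, 44043384 to 44048579, plus strand) followed Mcpt8 in order. It stood at 122 and 109 CPM in KD largazole, 65.3 and 65.6 in KD DMSO, 66.7 and 58.0 in parental largazole, and 17.6 and 15.9 in parental DMSO. KD DMSO and parental largazole overlapped, so their levels did not differ beyond their spread, and the other groups stood apart. The largazole mean was 1.77 times the DMSO mean in KD cells and 3.73 times it in parental cells, log2 responses of 0.82 ± 0.10 and 1.90 ± 0.11 with a difference of -1.08 ± 0.15. The averaged rises were 1.36 ± 0.08 with largazole (adjusted p = 2.62e-07) and 1.43 ± 0.08 with the knockdown (adjusted p = 2.04e-06 by edgeR quasi-likelihood). The gene nearest to both Thy1 and Mcpt8 in pattern was Ms4a4d (r = 0.995 and 0.996), with Anxa5 second for Thy1 (0.992) and Fgf7 second for Mcpt8 (0.993). Ms4a4d averaged 23.6 CPM in KD largazole, 11.8 in KD DMSO, 8.71 in parental largazole and 1.46 in parental DMSO. Thy1 and Mcpt8 had r = 0.991 with each other.

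All 11 T cell markers averaged at most 1 CPM, and Cd3d, Cd3e, Cd3g, Cd8a and Cd247 were at 0. Their summed level was 1.48 to 1.62 CPM in KD largazole, 0.295 to 0.593 in KD DMSO, 1.09 to 1.19 in parental largazole and 0 to 0.0739 in parental DMSO. Fibroblast markers were abundant as a sum, though 3 of the 12 averaged at most 1 CPM. Their summed level was 4579 to 5204 CPM in KD largazole, 5240 to 5308 in KD DMSO, 3643 to 3706 in parental largazole and 3675 to 3687 in parental DMSO. Of 9 tested, 8 rose with the knockdown, where 13.5% of all tested genes did. Thy1 rose with the knockdown as these did, and their part in the Thy1 result was not tested, while none of the 9 passed for the difference between responses. Among 12 tested genes of other GPI-anchored surface proteins, 6 rose and 3 fell with largazole, where 32.5% of all tested genes rose and 29.8% fell, and 6 rose with the knockdown, where 13.5% did. None passed for the difference between responses, which is near the 0.208% of all tested genes. Ly6c1 of that list averaged 146 CPM in KD largazole, 48.1 in KD DMSO, 53.6 in parental largazole and 13.7 in parental DMSO, and had a difference between responses of -0.37 ± 0.26 (adjusted p = 0.802). Thy1 binds integrins, syndecan 4 and the adhesion receptor Adgre5 on other cells. Of the 11 tested genes of these ligands and of the kinases and adaptors of Thy1, 6 rose and 2 fell with largazole, against 32.5% and 29.8% of all tested genes, and 4 rose and 2 fell with the knockdown, against 13.5% each. None passed for the difference, again near the 0.208% of all genes. Adgre5 had the smallest adjusted p among them, with a difference of -1.01 ± 0.22 (adjusted p = 0.140), at 34.9 CPM in KD largazole, 6.65 in KD DMSO, 42.4 in parental largazole and 4.01 in parental DMSO.

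Itgbl1 (chromosome 14, 123659971 to 123975618, plus strand) was the only one of the 6 genes that largazole lowered. It stood at 34.4 and 39.6 CPM in KD largazole, 87.2 and 86.9 in KD DMSO, 26.5 and 25.6 in parental largazole, and 111 and 115 in parental DMSO. No groups overlapped. The mean under largazole was 0.426 of the DMSO level in KD cells and 0.230 of it in parental cells, log2 responses of -1.23 ± 0.09 and -2.12 ± 0.10 that differed by 0.89 ± 0.13. Averaged over genotypes Itgbl1 fell by 1.67 ± 0.07 on the log2 scale (adjusted p = 3.42e-08). The averaged knockdown effect was 0.07 ± 0.07 and did not pass (adjusted p = 0.502), and KD cells lay above parental cells under largazole (1.42 times) and below them in DMSO (0.770 times). Of 7 tested genes of integrin beta subunits, which share its repeats, 3 rose and 2 fell with largazole, near the 32.5% and 29.8% of all tested genes, and none passed for the difference between responses, near 0.208%. Itgb1, the most widely used beta subunit, averaged 1226 CPM in KD largazole, 1237 in KD DMSO, 1357 in parental largazole and 1351 in parental DMSO. The genes most like Itgbl1 in pattern were Vrk2 (r = 0.997) and Dhdh (0.995).

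Cited2 (chromosome 10, 17723218 to 17725674, plus strand) was the only gene of the 6 that was highest in parental largazole. It stood at 289 and 275 CPM in KD largazole, 194 and 185 in KD DMSO, 355 and 335 in parental largazole, and 133 and 134 in parental DMSO. No groups overlapped, and the genotypes changed order: KD cells held 0.818 of the parental level under largazole and 1.42 times it in DMSO. The largazole mean was 1.49 times the DMSO mean in KD cells and 2.59 times it in parental cells, log2 responses of 0.58 ± 0.07 and 1.37 ± 0.07 with a difference of -0.80 ± 0.10. Averaged over genotypes it rose by 0.97 ± 0.05 (adjusted p = 2.02e-07), and the averaged knockdown effect of 0.11 ± 0.05 did not pass (adjusted p = 0.156). Without KD largazole replicate 2 that effect was 0.12 ± 0.05 and passed (adjusted p = 0.0437); over all alternatives its adjusted p lay between 0.0437 and 0.394. Rraga and Spg20 were most like it in pattern (r = 0.990 each). Its promoter is shown beside that of Mcpt8 for contrast: it holds 29 CpG dinucleotides in the 300-base window, with 2 GC boxes and the HIF core motif ACGTG, found on both strands at 1 overlapping place. Of all promoter windows 35.6% hold a GC box and 19.6% the HIF core. The bases before the first annotated exon (GRCm38.p6, RefSeq, chr10:17722978-17723217, plus strand) are given 5′ to 3′ with those matches in capitals.
Cited2: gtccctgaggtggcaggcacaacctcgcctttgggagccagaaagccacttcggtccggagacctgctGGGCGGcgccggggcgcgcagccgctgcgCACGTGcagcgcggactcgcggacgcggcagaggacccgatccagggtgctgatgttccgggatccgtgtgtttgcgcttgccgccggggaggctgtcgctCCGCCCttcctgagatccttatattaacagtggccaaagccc

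Among 14 partners and relatives of Cited2, 9 were tested and none passed for the difference between responses, near the 0.208% of all tested genes. Cited4, a close relative, was near 0, with 0.0341 CPM as its highest group mean. The acetyltransferase genes Ep300 and Crebbp averaged 121 and 32.7 CPM in KD largazole, 121 and 40.4 in KD DMSO, 114 and 34.9 in parental largazole and 129 and 43.1 in parental DMSO, and neither passed for the averaged largazole response or knockdown effect. Hif1a rose with the averaged knockdown effect by 0.26 ± 0.08 (adjusted p = 0.0293). Its knockdown effect was 0.38 ± 0.11 under largazole (adjusted p = 0.0356) and 0.14 ± 0.11 in DMSO (adjusted p = 0.479 by edgeR quasi-likelihood). It averaged 564 CPM in KD largazole, 591 in KD DMSO, 434 in parental largazole and 537 in parental DMSO. Of 10 HIF target genes, 9 rose with the averaged knockdown effect (median log2 0.52, against 0.00 over all tested genes, of which 13.5% rose). This was uneven between conditions. Under largazole 9 rose with the knockdown (median 0.67, where 8.51% of all tested genes rose). In DMSO 3 rose and 7 did not pass (median 0.21, where 7.01% of all tested genes rose). Bnip3, a mitophagy receptor, was the only one of the 10 HIF targets past the threshold for the difference between responses. Its difference was 0.97 ± 0.14 (adjusted p = 0.0241 by edgeR quasi-likelihood), the opposite sign to that of Cited2. Bnip3 averaged 231 CPM in KD largazole, 158 in KD DMSO, 70.3 in parental largazole and 93.8 in parental DMSO. Across the 9 lists of related genes 56 genes were tested, and Bnip3 was the only one past that threshold, where 0.208% of all tested genes were.

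**Figure D3:**
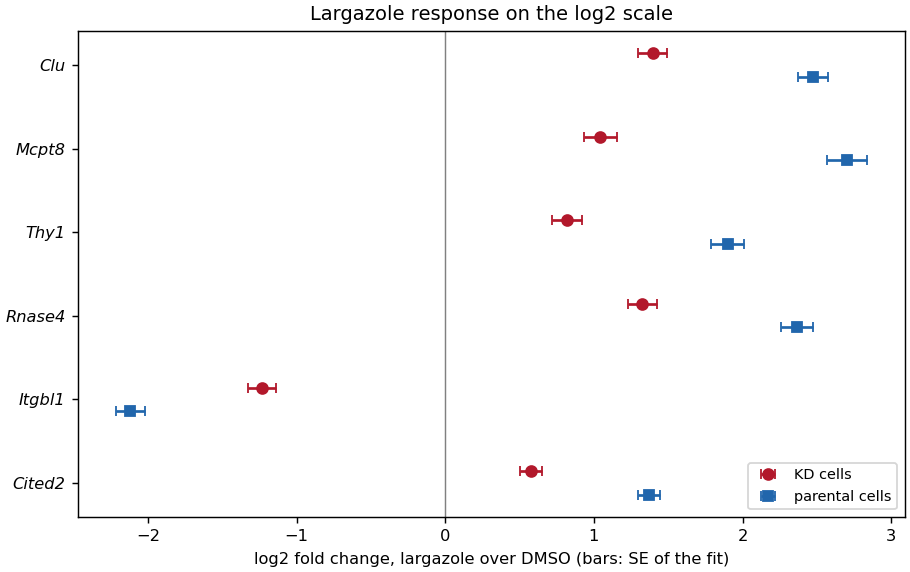
Log2 fold change of largazole over DMSO for each gene in KD cells (circles) and parental cells (squares), with the SE of the fit as bars. Every circle lies closer to 0 than its square, and the KD minus parental difference is -1.66 for Mcpt8 and -0.80 for Cited2.

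The responses compare differently when they are taken as a change in CPM. Clu gained 256 CPM with largazole in KD cells (214 to 298 over pairs of libraries) and 247 CPM in parental cells (241 to 253). Rnase4 gained 47.8 CPM in KD cells (42.7 to 52.9) and 47.4 CPM in parental cells (46.8 to 48.0). Thy1 gained 50.1 CPM in KD cells (43.3 to 56.9) and 45.6 CPM in parental cells (40.4 to 50.8). For these 3 genes the gains overlapped between the genotypes. Mcpt8 gained 102 CPM in KD cells (76.5 to 128) and 52.1 CPM in parental cells (50.9 to 53.3). Its mean gain was larger in KD cells by 50.2 CPM, with a wide SE of 24.8 from 2 libraries per group. Cited2 gained 93.0 CPM in KD cells (81.2 to 105) and 212 CPM in parental cells (200.7 to 222.7), and Itgbl1 changed by -52.7 to -47.2 CPM in KD cells and by -89.3 to -84.6 CPM in parental cells. Only Cited2 and Itgbl1 thus responded less in KD cells on both scales. This scale was added after the data were seen, and no test was made on it. Put as levels, KD largazole libraries held 47.4% of the Clu that multiplying both single effects gives, 31.6% of the Mcpt8, 47.4% of the Thy1, 48.7% of the Rnase4, 57.6% of the Cited2 and 185% of the Itgbl1. KD cells in DMSO stood at 52.1% of the parental largazole level for Clu, 156% for Mcpt8, 105% for Thy1, 53.8% for Rnase4 and 54.8% for Cited2. For Itgbl1, which largazole lowered, this share was 334%.

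**Figure D4:**
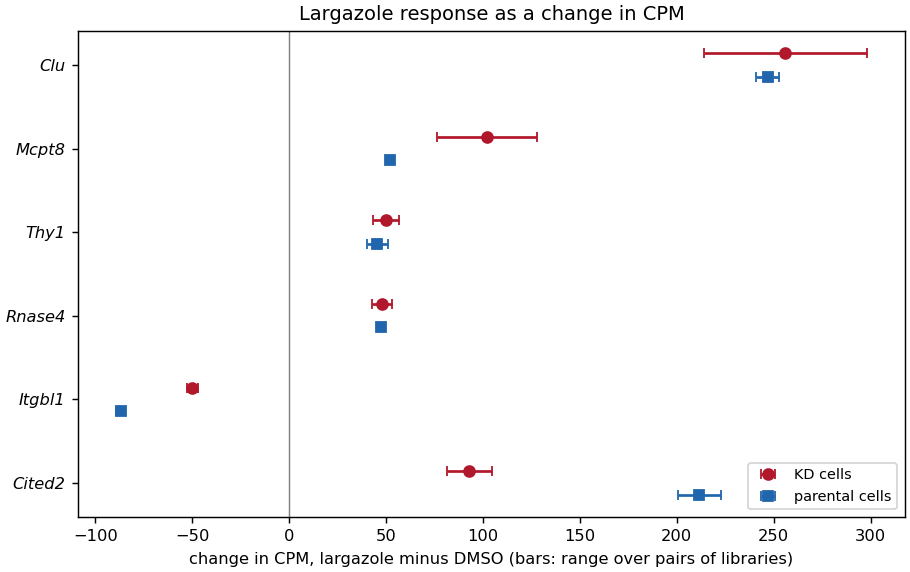
Change in CPM, largazole minus DMSO, for each gene in KD cells (circles) and parental cells (squares); bars span the lowest and highest difference between single libraries (2 per group). Clu, Thy1 and Rnase4 overlap between genotypes, Mcpt8 had the larger mean gain in KD cells, and Cited2 and Itgbl1 changed less in KD cells.

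Per kilobase of the longest transcript, Clu and Mcpt8 were the most abundant of these RNAs in KD largazole, at 228 and 210 CPM per kb, followed by Cited2 at 117, Thy1 at 66.6, Rnase4 at 52.3 and Itgbl1 at 9.11. In parental DMSO the order was Cited2 at 55.3 CPM per kb, then Clu, Itgbl1 at 27.8, Mcpt8, Thy1 at 9.64 and Rnase4 at 7.52. Itgbl1 was lowest of the 6 in KD largazole and below only Cited2 and Clu in parental DMSO.

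Of the 6 genes 4 lie on chromosome 14, which holds 3.31% of the tested genes with a known place. None of the 11 nearest tested neighbours of the 6 genes passed for the difference between responses, a share near the 0.208% of all tested genes and so no result about the neighbours. Mcpt1, among the 11, held 0 counts in both DMSO groups and could not have passed. Scara3, a scavenger receptor family gene 14.5 kb from Clu, had a difference between responses of 0.22 ± 0.15 (adjusted p = 0.799) and fell by 1.04 ± 0.08 with largazole (adjusted p = 1.55e-06), where Clu rose. Ephx2, the soluble epoxide hydrolase gene 103 kb away on the other side, rose by 1.25 ± 0.09 (adjusted p = 1.85e-06) with a difference of 0.04 ± 0.19 (adjusted p = 0.993). On the sides of Thy1, Usp2 (18.4 kb away) and Pvrl1 (236 kb) had differences of -0.51 ± 0.29 (adjusted p = 0.714) and -0.36 ± 0.19 (adjusted p = 0.657). Pnp2, 126 kb from Rnase4, had -1.37 ± 0.47 (adjusted p = 0.422). The nearest tested genes to Itgbl1 (Tmtc4, 676 kb away) and Cited2 (Gm20125, 627 kb, and Txlnb, 70.6 kb) had adjusted p of 0.937 to 0.972. Gm20125 held only 5 counts in all in each DMSO group, so its outcome says little. The only other gene of chromosome 14 among the 26 was Loxl2, a secreted lysyl oxidase, which was singled out after its values were seen. Its difference of -1.09 ± 0.16 (adjusted p = 0.0290) stands beside -1.08 for Clu. Loxl2 stood at 133 and 160 CPM in KD largazole, 78.4 and 88.3 in KD DMSO, 86.8 and 85.2 in parental largazole, and 24.2 and 21.7 in parental DMSO. Taken as a change in CPM, it gained 63.4 with largazole in KD cells and 63.1 in parental cells, a difference of 0.320.

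**Figure D5:**
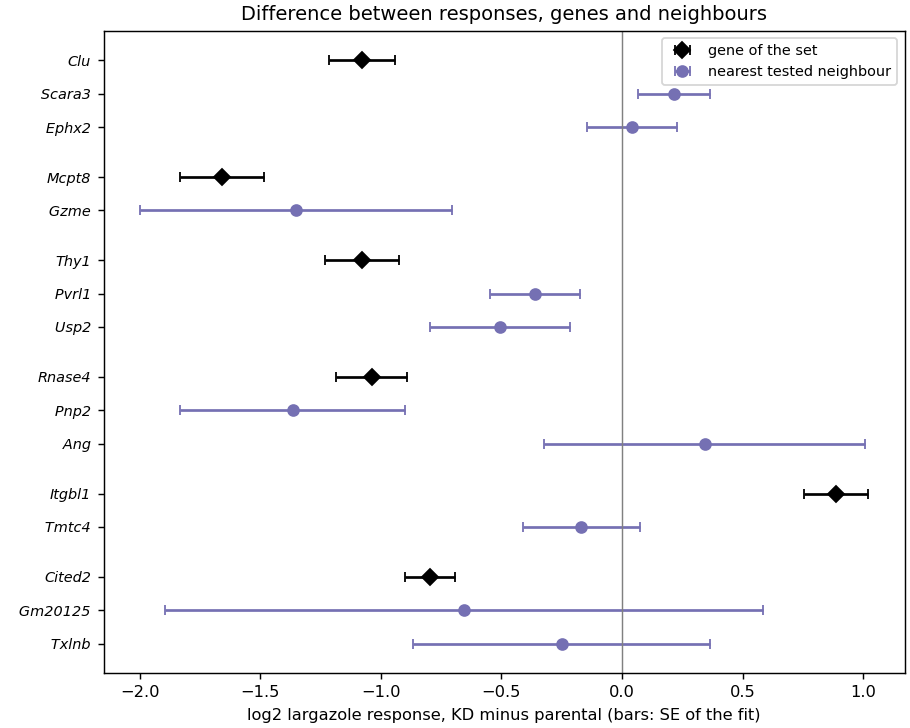
Log2 largazole response in KD minus parental cells for each gene (diamonds) and its nearest tested neighbours along the chromosome (circles), with the SE of the fit as bars. Mcpt1 is left out because it held 0 counts in both DMSO groups. The 6 genes lie between -1.66 and 0.89, and no neighbour shown passed the threshold.

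How many of the 6 genes passed the threshold for the difference depended on single libraries, while its size moved little. The number was 6 without either KD largazole library, 1 without KD DMSO replicate 2, and 0 without each of the other 5 libraries in turn. It was 5 with scaling by library totals and 5 with no filter on low counts. The KD largazole replicates differed most. Over genes averaging 5 CPM or more, the SD of their log2 difference was 0.359, against 0.194 to 0.218 in the other groups. Leaving out either KD largazole library takes that pair out of the estimate of spread, so the 6 passing there do not show robustness. Over the fits that leave out 1 library the difference of Clu ranged from -1.21 to -0.95, that of Mcpt8 from -1.85 to -1.48, that of Thy1 from -1.16 to -0.98, that of Rnase4 from -1.13 to -0.94, that of Itgbl1 from 0.79 to 0.98 and that of Cited2 from -0.83 to -0.75. The averaged largazole responses of all 6 genes, and the averaged knockdown effects of Clu, Mcpt8, Thy1 and Rnase4, passed in every one of the 18 refits.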

How the data were processed

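The files hold the authors' estimated counts for each gene symbol, which are never negative, mostly whole and not normalized. Per the labels' protocols libraries were directional and polyA-selected, and per the submitters' processing notes the build was mm10. Aligner, counting tool, strand setting and annotation version were not given in the sources used here. Expected counts, as deposited by the authors, were rounded to whole numbers. Of 24411 rows, 27 had symbols turned into dates and were not named.

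The two-sided quasi-likelihood test of edgeR 4.0.16 (TMM, filterByExpr with minimum count 10 and minimum total 15, legacy off) used a single fit of all 8 libraries, 1 mean for each group, with adjusted p over 12517 genes and a threshold of 0.05. Each SE is the absolute log2 change over the root of its F. The fit was run on simulated counts with the same spread in all genes and groups. That check does not cover the wider spread between the KD largazole replicates. Total counts per library were at least 13020492. Coordinates are from GENCODE M21 on GRCm38, the assembly of mm10; 23350 symbols matched directly and 648 through RefSeq synonyms. RefSeq promoters were found for Mcpt8, Rnase4, Itgbl1 and Cited2 (4 of 6).

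The genes, gene lists and comparisons were chosen with earlier results of these data known. Named besides the 6 genes were Prdx6, the genes most like each in pattern (Pearson r of log2 CPM, prior count 2), the nearest genes along the chromosome, listed genes past the threshold for the difference, 9 listed genes fixed by name and the most abundant markers. Ly6c1, Adgre5, Apoe, Mcpt1, Cma2 and Loxl2, and the markers at 0, were chosen after their values were seen. Alternatives tried were scaling by RLE, upper quartiles or totals, 2 filters, DESeq2 1.42.0, limma-voom (limma 3.58.1), a replicate block and leaving out each library. The older quasi-likelihood method, removal of Rn45s and the linear CPM scale were chosen after seeing the data. Software was R 4.3.3, with matplotlib 3.10.9 under Python 3.11.15.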

Additional observations from a re-analysis of the deposited data

Results flagged for a closer look

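Listed here are genes with a difference between the genotypes in their log2 response to largazole. The 6 genes were chosen for it, so their values are descriptions: the log2 response in KD minus that in parental cells was -1.08 for Clu, -1.66 for Mcpt8, -1.08 for Thy1, -1.04 for Rnase4, 0.89 for Itgbl1 and -0.80 for Cited2. Bnip3, the one listed related gene past the threshold, had 0.97 (adjusted p = 0.0241, edgeR's quasi-likelihood test), with 0.86 to 1.08 over 18 refits, of which 12 passed (adjusted p = 3.19e-06 to 0.216). Loxl2, on chromosome 14 as Clu is, had -1.09 (adjusted p = 0.029), with -1.22 to -0.96 over the refits, of which 10 passed (adjusted p = 1.46e-05 to 0.331).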

How the results depend on the processing

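The number of genes past the threshold for the difference between responses was 26, and 84 with DESeq2, 104 with the replicate block and 2 to 457 when 1 library was left out. Leaving out 1 library gave 2023 to 5250 genes for the averaged knockdown effect (3380 with all), 837 to 4175 for the knockdown under largazole (2293 with all) and 398 to 2969 for the knockdown in DMSO (1380 with all). The counts for largazole stayed within 1.5 times under all 18 refits. On the linear CPM scale the difference between the genotypes' gains, KD minus parental, turned positive for Clu (9.22 ± 36.6 CPM, SE), Mcpt8 (50.2 ± 24.8), Thy1 (4.50 ± 7.96) and Rnase4 (0.416 ± 4.70). On the log2 scale, under 18 refits, no difference of the 6 genes changed sign. The labels do not say that a replicate number marks a shared batch. The deviations of same-numbered libraries had correlations of 0.146 to 0.364 in 4 of 6 pairs of groups and of -0.00767 and 0.00167 in the others, and Rn45s was higher in replicate 1 in all 4 groups, so whether the numbers pair the libraries cannot be settled from these data. The block kept all 6 genes past the threshold for the difference, which chose them, so this is no separate support. No scaling moved the median of all genes by over 0.1. The fold of a gene near 0 counts, such as Mcpt1, is limited by depth.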
